A study of Mus musculus with 10 samples.

Results

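Dmrtb1, Upk1b, Kcnk6, Gfm2 and Gpr155 are 5 genes with a larger share of the RNA in microglia preparations from the striatum than from the midbrain. They come from 53715 genes counted and 13210 genes that had enough counts to be tested in both cohorts of the study. They were chosen by the measured regional difference itself: each passed an unadjusted p under 0.01 with the striatum higher in the pilot cohort and again in the second cohort, in the fits of limma. The regional values of these genes are therefore a description and carry no test. The same rule also picked Siglech and Gm45640, which makes 7 genes in all. The study itself described every gene shared by its experiments as higher in the midbrain. Its second experiment had more mice than the libraries per region compared here, because 2 libraries of unsettled region were left out. With these 2 placed by their titles, 0 genes passed the rule in both cohorts, and with both in the other region 26 did.

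Microglia were taken from untreated C57BL/6 mice aged 3 months (male C57BL/6 J mice in the study's methods), perfused, dissociated with papain, spun through Percoll and enriched with CD11b beads, and their poly-A RNA was sequenced. CD11b is carried by microglia and also by monocytes, neutrophils and the macrophages of the brain borders, so the beads do not separate these cells. The study checked the bead fraction by flow cytometry and described it as nearly all microglia. All groups shared this strain, age and handling, and differed by region and cohort: 2 midbrain and 2 striatum libraries of the pilot cohort, and 2 midbrain and 2 striatum libraries of the second cohort. A further 2 libraries of the second cohort, titled Mdb 2 and Str 2, carry a different region in their other label and were left out of all comparisons. The study describes both regions of the same mice, while the labels do not tie libraries to animals. Midbrain and striatum libraries of a cohort can therefore share mice, and p-values measure the spread between these libraries only.

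Counts per library ranged from 575709 to 8463782 in the 8 libraries compared, and the shallowest was striatum library 3 of the second cohort. There, 3 counts correspond to 4.96 counts per 1000000 (CPM), against 0.373 to 1.08 CPM in the other 7. Levels are given as CPM after TMM scaling, which corrects for the composition of the libraries. Replicates were not duplicates of each other, with a chi-square per degree of freedom between 5.58 and 23.1 within the 4 groups.

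The 5 genes belong to unrelated families. Dmrtb1 encodes a DM-domain transcription factor that is known from male germ cells, where it controls the switch from mitosis to meiosis. Upk1b encodes a uroplakin of the tetraspanin family, a membrane protein that forms plaques on the surface of the bladder lining. Kcnk6 encodes a tandem-pore potassium channel that lets potassium leave the cell, and the loss of potassium is a signal for assembly of the NLRP3 inflammasome in macrophages. Gfm2 encodes a mitochondrial elongation factor that takes ribosomes apart after translation in that organelle. Gpr155 encodes a lysosomal membrane protein that senses cholesterol and passes the signal to the growth kinase complex mTORC1. Microglia are the resident macrophages of the brain parenchyma, and homeostatic markers such as P2ry12 and Tmem119 set them apart from macrophages that arrive from the blood.

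The genes lie on 5 chromosomes of GRCm38. Dmrtb1 is at chr4:107676290-107684230, Upk1b at chr16:38773184-38800203, Kcnk6 at chr7:29221926-29232515 and Gpr155 at chr2:73341506-73386572, all on the minus strand. Gfm2 is at chr13:97137937-97181195 on the plus strand. Promoter windows of RefSeq on GRCm38.p6, which cover 250 bases before and 50 bases after a transcription start, were found for 3 of the 5 genes, with 2 windows for Dmrtb1. The outermost Dmrtb1 window and those of Gfm2 and Gpr155 are shown 5′ to 3′ on the strand of the gene, because these are the members that moved most and the pair that moved most alike. Capitals mark every match to a GC box (GGGCGG) or a CCAAT box (CCAAT) on either strand.
Dmrtb1, chr4:107684181-107684480, minus strand: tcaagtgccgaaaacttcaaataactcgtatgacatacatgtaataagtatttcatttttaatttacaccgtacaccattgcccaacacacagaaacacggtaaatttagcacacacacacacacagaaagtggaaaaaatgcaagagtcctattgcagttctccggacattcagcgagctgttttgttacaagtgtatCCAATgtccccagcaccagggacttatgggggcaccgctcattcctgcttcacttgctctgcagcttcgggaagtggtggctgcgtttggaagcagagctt
Gfm2, chr13:97137687-97137986, plus strand: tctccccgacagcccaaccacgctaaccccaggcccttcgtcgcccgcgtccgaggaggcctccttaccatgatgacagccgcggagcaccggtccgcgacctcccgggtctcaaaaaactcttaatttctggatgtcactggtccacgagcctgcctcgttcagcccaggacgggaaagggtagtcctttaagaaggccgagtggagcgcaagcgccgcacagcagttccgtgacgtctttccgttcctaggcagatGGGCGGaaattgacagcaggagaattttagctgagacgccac
Gpr155, chr2:73386431-73386730, minus strand: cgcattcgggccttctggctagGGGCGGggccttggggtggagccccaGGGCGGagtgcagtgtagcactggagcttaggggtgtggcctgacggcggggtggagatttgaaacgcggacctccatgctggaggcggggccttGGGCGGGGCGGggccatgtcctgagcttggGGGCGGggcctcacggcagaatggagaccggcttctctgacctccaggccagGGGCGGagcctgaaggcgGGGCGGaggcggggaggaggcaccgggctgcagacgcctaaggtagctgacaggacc

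The Gpr155 window held 7 matches to the GC box, of which an adjoining pair share a base, and had a GC content of 70.3%. The Gfm2 window held 1 match and had a GC content of 60.0%. The Dmrtb1 window held 1 CCAAT box, no GC box and a GC content of 44.7%, below the median of 52.7% over all 32851 windows. Of all windows, 35.7% held a GC box and 37.4% a CCAAT box. The other Dmrtb1 window, at chr4:107683540-107683839 inside the annotated gene, held 1 GC box and had a GC content of 74.7%. A PU.1 site (GAGGAAGT), an ETS site (CCGGAAGT), an AP-1 site (TGACTCA), a cAMP response element (TGACGTCA), an E-box (CACGTG) and a TATA box (TATAAA) had no match in any of the 4 windows, and were held by 3.2%, 3.89%, 5.2%, 1.79%, 7.15% and 13.6% of all windows. These are matches of letters, and no match says only that these letters are not in the window.

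Dmrtb1 had the largest regional difference of the 5 genes. Its level in the pilot cohort was 1.86 and 5.52 CPM in the midbrain libraries and 12.5 and 12.8 CPM in the striatum libraries. In the second cohort it was 1.29 and 1.17 CPM in the midbrain and 9.36 and 18.2 CPM in the striatum. The striatum libraries lay above the midbrain libraries of their cohort without overlap. In bulk RNA, fewer cells of a type and less RNA per cell cannot be told apart. The fitted log2 difference, striatum minus midbrain, was 1.95 ± 0.49 (SE) in the pilot cohort and 3.13 ± 0.69 in the second cohort, or 3.86-fold and 8.77-fold. In the fit of both cohorts together it was 2.32 ± 0.43, the highest of 14053 genes.

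The Dmrtb1 values rested on few reads. The raw counts were 11 and 31 in the midbrain and 66 and 103 in the striatum of the pilot cohort, and 6 and 5 in the midbrain and 26 and 11 in the striatum of the second cohort. The exact 95% Poisson intervals of the second cohort reached up to 2.80 and 2.74 CPM in the midbrain and down to 6.12 and 9.08 CPM in the striatum. These intervals cover counting error only. The distance between the regions was part of the selection and nothing is read from these intervals about it. The pilot midbrain libraries differed between themselves, with intervals of 0.930 to 3.33 and 3.75 to 7.84 CPM.

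Upk1b showed about the same fold in both cohorts. Its level was 27.1 and 34.7 CPM in the midbrain and 54.0 and 64.0 CPM in the striatum of the pilot cohort. In the second cohort it was 43.5 and 47.4 CPM in the midbrain and 78.9 and 106 CPM in the striatum. The regions did not overlap within either cohort. The fitted log2 difference was 0.93 ± 0.22 in the pilot cohort and 1.00 ± 0.30 in the second, or 1.91-fold and 1.99-fold.

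Kcnk6 was the gene with the widest spread between striatum libraries of the pilot cohort. Its level there was 211 and 357 CPM, against 158 and 141 CPM in the midbrain. In the second cohort it was 87.5 and 158 CPM in the midbrain and 272 and 202 CPM in the striatum. The regions did not overlap, although the gap between the nearest libraries was smaller than the distance between replicates in 1 or more groups of each cohort. The fitted log2 difference was 0.86 ± 0.24 in the pilot cohort and 1.10 ± 0.32 in the second, or 1.82-fold and 2.14-fold.

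Gfm2 had tight midbrain replicates. Its level was 105 and 111 CPM in the midbrain and 172 and 196 CPM in the striatum of the pilot cohort. In the second cohort it was 85.8 and 96.9 CPM in the midbrain and 149 and 202 CPM in the striatum. Within each cohort the striatum libraries lay above the midbrain libraries. The fitted log2 difference was 0.75 ± 0.17 in the pilot cohort and 0.94 ± 0.28 in the second, or 1.68-fold and 1.92-fold.

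Gpr155 had the smallest difference of the 5 genes in the pilot cohort. Its level was 123 and 132 CPM in the midbrain and 189 and 235 CPM in the striatum of that cohort. In the second cohort it was 70.6 and 108 CPM in the midbrain and 166 and 194 CPM in the striatum. Here too the regions did not overlap within either cohort. The fitted log2 difference was 0.71 ± 0.18 in the pilot cohort and 1.07 ± 0.30 in the second, or 1.64-fold and 2.1-fold.

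**Figure D1:**
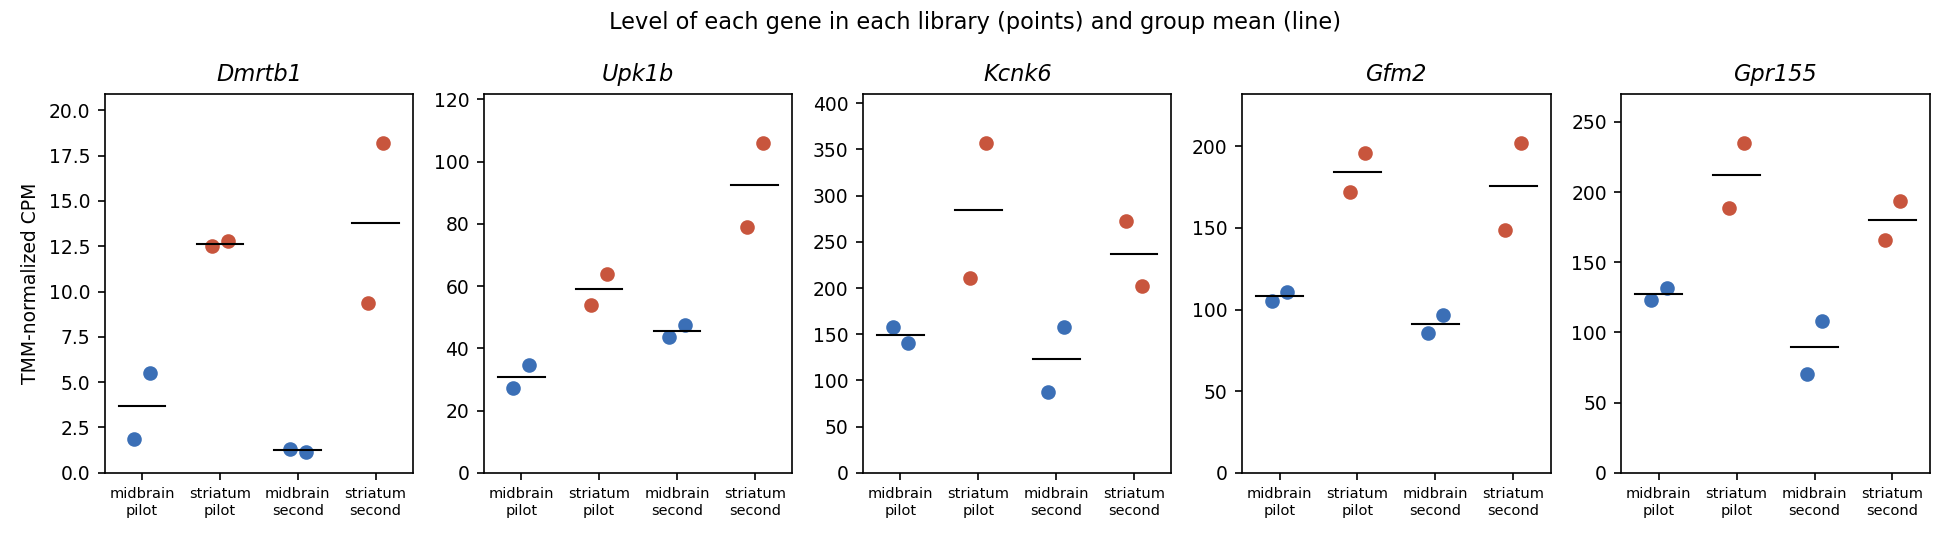
TMM-normalized CPM of the 5 genes (vertical axes, each from 0) in the 2 midbrain (blue) and 2 striatum (red) libraries of each cohort. Points are libraries and lines are group means; within each cohort every red point lies above every blue point, and the Dmrtb1 striatum libraries sit at 9.36 to 18.2 CPM against 1.17 to 5.52 CPM in the midbrain.

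The rule fixes most of what these values share. At p under 0.01 with the striatum higher, 82 of 14972 genes (0.548%) passed in the pilot cohort, 80 of 13486 genes (0.593%) in the second cohort and 7 of 13210 genes (0.053%) in both, and the 5 members are among those 7 by construction. The members also all had striatum libraries above midbrain libraries in both cohorts, which 836 of 13210 genes (6.33%) did, and nothing is read from that count. Apart from Dmrtb1, the members were not among the largest differences of all genes. Ranked by fold in the pilot cohort, Dmrtb1 stood at place 44 and the other 4 between 402 and 743 of 14972, and in the second cohort at place 4 and between 589 and 850 of 13486. In the joint fit it stood at place 1 and the other 4 between 174 and 317 of 14053.

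How many of the 5 passed in both cohorts depended on single libraries. None passed without midbrain library 1 of the pilot cohort. Only Dmrtb1 passed without midbrain library 2 of the pilot cohort, without midbrain library 1 of the second cohort or without striatum library 3 of the second cohort. Dmrtb1 and Gfm2 passed without striatum library 1 of the second cohort. All 5 passed without any of the other 3 libraries. Each library left out leaves its group with 1 library, which the fit takes to vary like the other groups. When every library was thinned to the depth of the smallest, Gpr155 alone passed in both cohorts, and 1 member was no longer tested in both. With the 2 unassigned libraries placed by their titles none of the 5 passed in both cohorts, and the second-cohort difference was -0.12 for Upk1b and 0.35 to 0.64 for the other 4. With both placed in the other region all 5 passed.

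Of the other genes picked by the rule, Siglech, a sialic acid-binding lectin of microglia at chr7:55768178-55778925, had 666 and 843 CPM in the midbrain and 1140 and 1510 CPM in the striatum of the pilot cohort. In the second cohort it had 916 and 1460 CPM in the midbrain and 1950 and 2340 CPM in the striatum. Its log2 difference was 0.79 ± 0.21 and 0.94 ± 0.27, within the range of Upk1b, Kcnk6, Gfm2 and Gpr155. Gm45640, an annotated gene at chr8:90876581-90878476, had a log2 difference of 0.83 ± 0.19 in the pilot cohort and 1.38 ± 0.28 in the second.

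The members nearest to the threshold were Upk1b, whose larger p of the cohorts was 0.0068, and Kcnk6, whose larger p was 0.00646. These values describe the selection and test nothing. Just outside it were Gm15503, with log2 differences of 0.86 ± 0.22 and 1.03 ± 0.34, and the glutamate transporter gene Slc1a3, with 0.71 ± 0.23 and 1.35 ± 0.35. Snn (0.74 and 0.90), Gm6277 (0.76 and 1.09) and Orc4, a subunit of the origin recognition complex (1.53 and 1.87), followed. The 5 genes outside missed the threshold in 1 cohort each, with the larger p between 0.0116 and 0.0145. Their differences overlapped with those of Upk1b, Kcnk6, Gfm2 and Gpr155 or were larger, apart from Snn in the second cohort. Snn was at 0.90 there, against 0.94 to 1.10 for those members. The threshold does not mark a gap in the data.

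**Figure D2:**
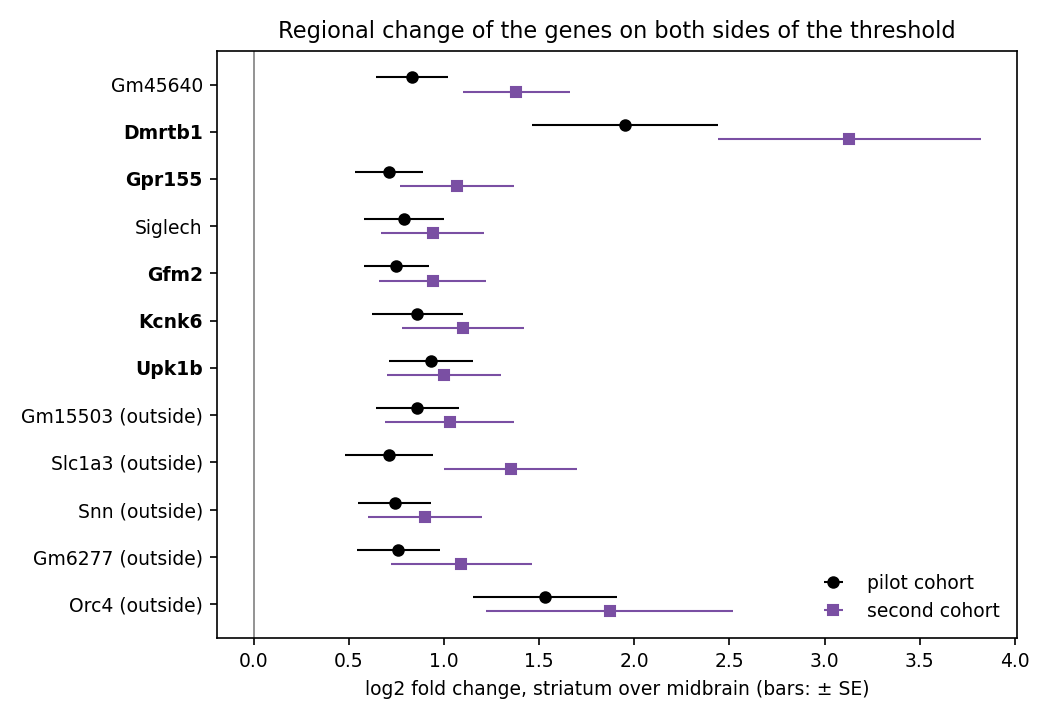
Log2 fold change of striatum over midbrain (horizontal axis) with its SE in the pilot cohort (circles) and the second cohort (squares) for the 7 genes picked by the rule, members in bold, and the 5 genes just outside. The genes just outside span 0.71 to 1.87 and overlap with the members, and Dmrtb1 at 1.95 and 3.13 lies above both.

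The difference between the cohorts was not used to choose the genes and was tested for them. In the fit over 8 libraries with region as covariate, 1480 of 14053 genes (10.5%) differed between the cohorts at a Benjamini-Hochberg adjusted p under 0.05 by limma, 662 higher in the second cohort and 818 higher in the pilot cohort. The fit takes the 4 libraries of a cohort as independent, although both regions can come from the same mice, which could make its p-values too small. Of the 5 members, only Upk1b passed. It was higher in the second cohort by 0.57 ± 0.16 on the log2 scale (adjusted p = 0.0461, limma), and both second-cohort libraries of each region lay above both pilot libraries of that region. The call was close to the threshold: it was lost under 13 of 18 alternatives. Over all 18, kept calls included, the difference ranged from 0.36 to 0.84 and the adjusted p from 0.0107 to 0.543. Of the 8 fits without a library, only the fit without striatum library 2 of the pilot cohort kept it, with adjusted p = 0.0404.

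For the other members the cohort difference was below the threshold. Gpr155 was at -0.40 ± 0.17 (adjusted p = 0.139, limma), with the second-cohort midbrain libraries below the pilot ones and the striatum libraries overlapping. Dmrtb1 was at -0.47 ± 0.42, Kcnk6 at -0.25 ± 0.21 and Gfm2 at -0.19 ± 0.14, with adjusted p of 0.482, 0.468 and 0.405 by limma. Beside a background of 10.5%, 1 of 5 members is not read as a result about them. Cohort and the time of the experiment cannot be told apart. Depth was 4473445 and 5176234 counts in the second-cohort midbrain against 5478677 and 5651084 in the pilot. In the striatum it was 575709 and 2820369 against 4936234 and 8463782. With all libraries thinned to the smallest, Upk1b was at 0.84 (adjusted p = 0.0671, limma) and 541 genes differed between the cohorts. The part of depth in the cohort differences was not tested further.

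**Figure D3:**
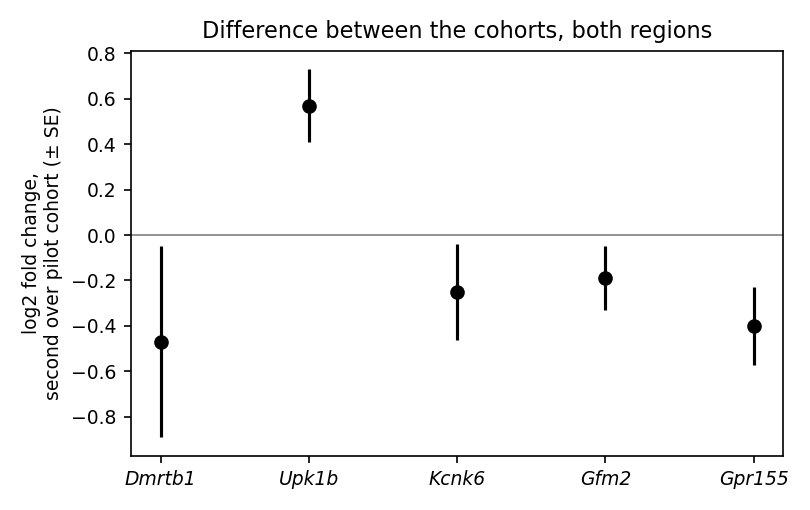
Log2 fold change of the second over the pilot cohort (vertical axis, with SE) for the 5 genes over both regions. Upk1b is at 0.57, and the other 4 lie between -0.47 and -0.19.

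The regions differed in more than these genes. All 14 homeostatic microglia markers had a positive fitted log2 difference over both cohorts, with a median of 0.62 against -0.04 over all genes, and 2 of them, Siglech and Olfml3, passed the joint fit (adjusted p under 0.05, limma). Siglech was itself picked by the rule. Gpr34 was an exception within the pilot cohort, at -0.28. The summed level of the list was 20200 to 22600 CPM in the midbrain and 28800 to 31000 CPM in the striatum of the pilot cohort, and 20400 to 23700 against 30300 to 34100 CPM in the second cohort. Its most abundant genes, Csf1r, the receptor for colony stimulating factor, and Sparc, a secreted matrix protein, were at 0.31 ± 0.11 and 0.51 ± 0.11.

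Markers of other blood and border cells moved the other way. Of the border macrophage markers, 8 of 8 were lower in the striatum and 6 passed, with a median log2 difference of -1.69. The most abundant were Pf4, a platelet factor chemokine, at -2.11 ± 0.33, and Cbr2 at -1.50 ± 0.31. Their sum was 1420 to 1720 CPM in the midbrain and 564 to 878 CPM in the striatum of the pilot cohort, and 2250 to 2670 against 298 to 339 CPM in the second cohort. Of the monocyte markers 10 of 10 were lower and 4 passed (median -2.05, sums of 276 to 3020 CPM in the midbrain and 122 to 235 CPM in the striatum), with Plac8 at -2.75 ± 0.76 and Chil3 at -2.05 ± 0.49 as the most abundant. Of the neutrophil markers 11 of 12 were lower and 6 passed (median -1.71, sums of 1210 to 6880 and 902 to 1020 CPM), with S100a9 at -3.08 ± 0.47 and Csf3r, the exception, at 0.26 ± 0.16 as the most abundant. Of the T and NK cell markers 7 of 7 tested were lower and 1 passed (median -1.83, sums of 87.1 to 320 and 9.93 to 55.5 CPM, Cd3g at 0 in all striatum libraries), with Gzma at -2.02 ± 0.58 and Nkg7 at -2.01 ± 0.33 as the most abundant. Over all genes, 137 of 14053 (0.975%) passed the joint fit with the midbrain higher and 12 (0.0854%) with the striatum higher.

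Fewer calls were made among markers of brain cells and B cells. Of the 17 markers of striatal projection neurons, 8 were tested and none passed the joint fit by limma, at an unadjusted p under 0.05, by edgeR's quasi-likelihood test or by DESeq2, with a median of 0.20 and sums of 51.4 to 96.5 CPM in the midbrain and 64.5 to 99.3 CPM in the striatum. Of that list, Ano3 was at 0 in all 8 libraries and Drd1 at 0 in the striatum libraries. None of the markers tested for dopamine neurons (median -0.36), neurons in general (-0.67), astrocytes (-0.30), oligodendrocytes (-0.18), endothelium (-0.04) or B cells (-0.27) passed by limma or the quasi-likelihood test. At an unadjusted p under 0.05 there was 1 gene each for dopamine neurons, neurons in general, astrocytes and endothelium and 0 for the others, and DESeq2 called 1 astrocyte gene. Astrocyte markers had a median of -0.85 in the pilot cohort and 0.92 in the second, and Slc1a3, one of them, was just outside the threshold of the rule.

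**Figure D4:**
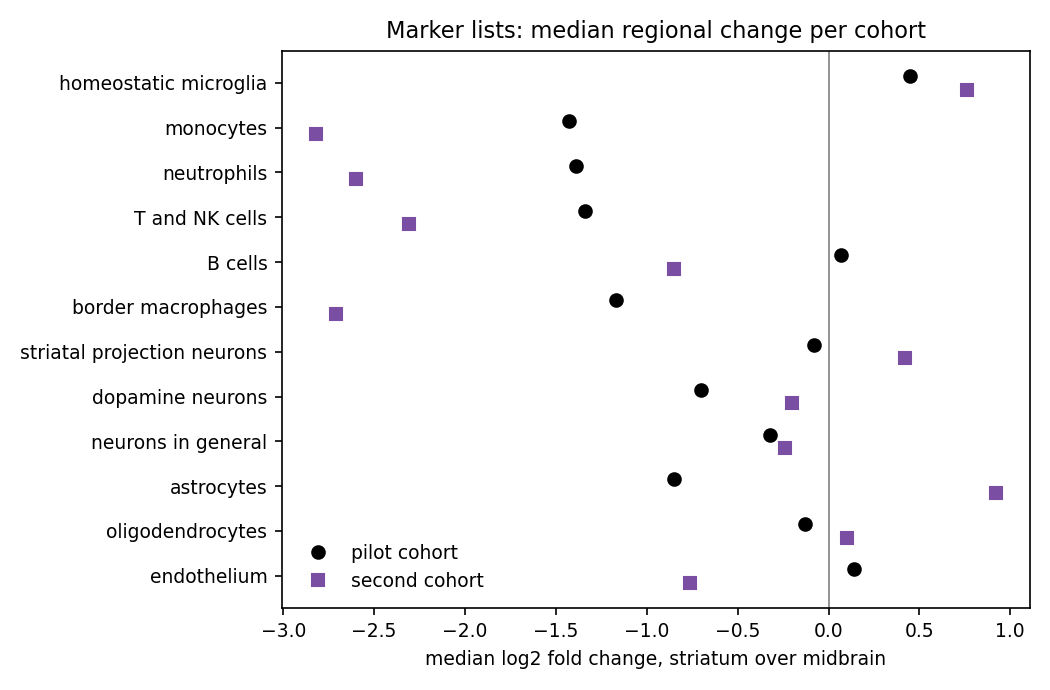
Median log2 fold change of striatum over midbrain (horizontal axis) of 12 marker lists in the pilot cohort (circles) and the second cohort (squares). Homeostatic microglia markers lie at 0.45 and 0.76, and those of border macrophages, neutrophils, monocytes and lymphocytes of the T and NK lineages lie between -2.82 and -1.17.

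Because the homeostatic markers were higher as a group, the 5 genes were also set against them. Per 1000 counts of the 14 markers, Dmrtb1 was 0.168 ± 0.108 (SD, n = 2) in the midbrain and 0.423 ± 0.0148 in the striatum of the pilot cohort, and 0.0564 ± 0.00969 and 0.421 ± 0.158 in the second cohort. That is a striatum-to-midbrain ratio of 2.51 and 7.47. The ratio was 1.37 and 1.38 for Upk1b, 1.22 and 1.30 for Gfm2, and 1.19 and 1.38 for Gpr155, with no overlap between regions in either cohort. Over all genes, 38 of 13210 (0.288%) had no overlap in both cohorts on this measure with the striatum higher, beside 4 of the 5 members, which were chosen for a separation of the same libraries, so nothing is read from that count. For Kcnk6 it was 1.34 and 1.35, and the regions overlapped in both cohorts: its lowest striatum values, 7.33 and 5.91, lay below the highest midbrain values, 7.79 and 6.69.

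When the fits were scaled to these markers in place of TMM, an alternative chosen after seeing the data, the median of all genes moved from -0.02 to -0.49 in the pilot cohort and from 0 to -0.57 in the second. The members kept a positive difference. Dmrtb1 was at 1.44 ± 0.49 and 2.59 ± 0.74, Upk1b at 0.46 ± 0.22 and 0.43 ± 0.33, and Kcnk6 at 0.40 ± 0.24 and 0.48 ± 0.34. Gfm2 was at 0.29 ± 0.18 and 0.36 ± 0.31, and Gpr155 at 0.25 ± 0.18 and 0.48 ± 0.31. Under this scaling none of the 5 passed the rule in both cohorts, and Dmrtb1 alone passed in the second. The part of the cell mixture in the regional difference was not tested.

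**Figure D5:**
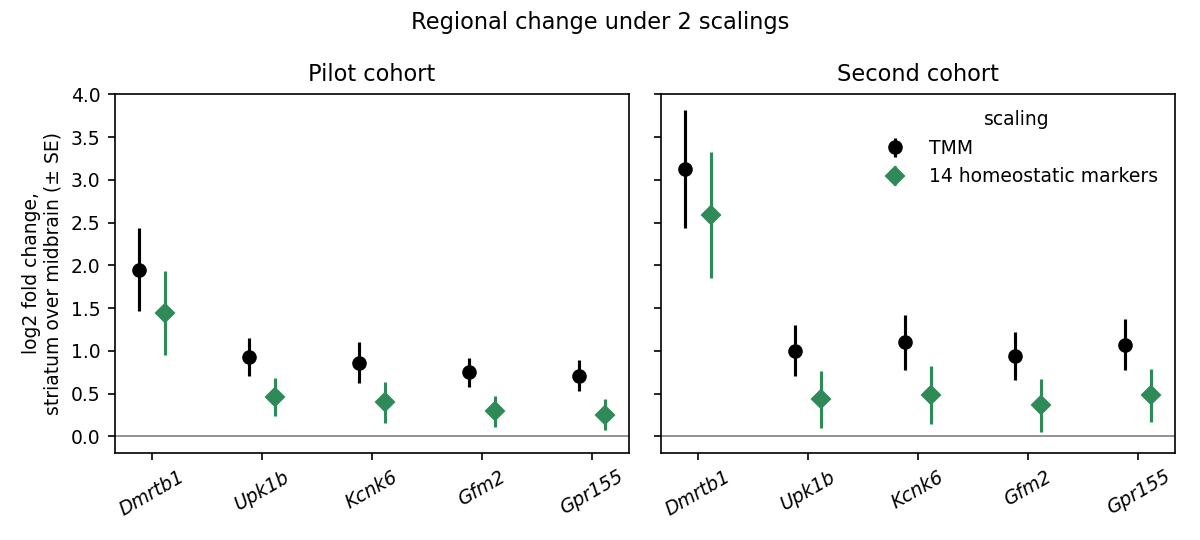
Log2 fold change of striatum over midbrain (vertical axis, with SE) of the 5 genes in each cohort, with TMM scaling (circles) and scaling to the 14 homeostatic markers (diamonds). Apart from Dmrtb1, the values lie between 0.71 and 1.10 with TMM and between 0.25 and 0.48 with the markers.

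Exons of Gfm2 overlap annotated exons on the opposite strand. The counting ignored strand and dropped reads that fell on more than a single gene, so the Gfm2 counts are uncertain where exons overlap, and the part of this in its regional difference is not reported here. Nsa2, a ribosome biogenesis gene whose span holds the 250 bases before the Gfm2 start, was at -0.06 ± 0.24 and -0.43 ± 0.46.

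Gpr155 shares exon bases with the antisense genes Gm13703 (120 bases) and Gm13709 (166 bases), which held 17 and 4 counts in all 10 libraries. Next to Upk1b, the galactosyltransferase gene B4galt4 ends 4135 bases away on the opposite strand. It was at 0.71 ± 0.21 and 0.81 ± 0.28, and at 0.71 ± 0.15 in the joint fit (adjusted p = 0.0511, limma), with 60.6 to 79.3 CPM in the midbrain and 98.0 to 152 CPM in the striatum. Igsf11, on the other side of Upk1b, was at -0.13 and -1.03. Among the nearest neighbours of the other members tested in both cohorts, Yif1b beside Kcnk6 was at 0.01 and 0.97. Scrn3 beside Gpr155 was at 0.52 and 0.27. Beside Dmrtb1, 4933424M12Rik was at 1.05 and -0.40 and Ndc1 at -0.32 and -0.08. No such neighbour passed the joint fit.

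The families of the 5 genes were examined without the members. Their differences are given with TMM scaling, and scaling to the homeostatic markers moves the median of all genes in the joint fit from -0.04 to -0.52, and the positive differences among the 72 tested family genes from 43 to 4, with 14 passing as lower in the striatum in place of 1. Of the other tandem-pore potassium channels, 7 of 13 were tested, 2 had a positive and 5 a negative difference, and none passed the joint fit by limma, by the quasi-likelihood test or by DESeq2, with 1 at an unadjusted p under 0.05. The 2 positive ones were Kcnk13, a channel of microglia that sets their resting potential, at 0.46 ± 0.19, and Kcnk12 at 0.38 ± 0.19. The 5 negative ones lay between -0.84 ± 0.78 (Kcnk1) and -0.16 ± 0.69 (Kcnk2). Of 9 genes of potassium efflux and the NLRP3 inflammasome, Il1b, the gene of an inflammasome product, was the one that passed, lower in the striatum at -2.33 ± 0.30 (adjusted p = 0.0137, limma), and Nlrp3 itself was at -0.89 ± 0.22 (adjusted p = 0.0891, limma). Of these 9 genes, 5 had an unadjusted p under 0.05, the quasi-likelihood test called 1 and DESeq2 called 2. The lower neutrophil and monocyte markers, at medians of -1.71 and -2.05, moved with Il1b, and their part in its difference was not tested.

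Of 10 other mitochondrial translation factors none passed by any of the 3 tools or at an unadjusted p under 0.05, 6 had a positive difference and the median was 0.13. Mrrf, the recycling factor that works with the Gfm2 protein, was at -0.25 ± 0.25, and Gfm1, its paralogue for elongation, at -0.09 ± 0.26. Of 26 other genes of lysosomal nutrient sensing by mTORC1 that were matched, 24 were tested and none passed by the 3 tools, with 3 at an unadjusted p under 0.05, 14 positive differences and a median of 0.19. Flcn, which encodes folliculin of that pathway, was at 0.76 ± 0.24 and Slc38a9, an amino acid sensor of the lysosome, at 0.28 ± 0.17. The other 10 differences were negative, the lowest that of Mlst8 at -0.56 ± 0.30.

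Of the tetraspanins, 21 of 25 were tested and none passed by limma or the quasi-likelihood test, with 1 called by DESeq2, 3 at an unadjusted p under 0.05, 16 positive differences and a median of 0.19. None of the 5 other uroplakins was tested, and Upk2 and Upk3b were at 0 in all 8 libraries. Of 8 other DM-domain genes only Dmrta2 was tested, at -1.47 ± 0.83, and 4 were at 0 in all 8 libraries.

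Over the 8 libraries, likeness was measured as the root mean square difference of mean-centred log2 CPM, in which 0 is an identical pattern. Gfm2 and Gpr155 were the most alike pair of members, at 0.175, followed by Kcnk6 and Gpr155 at 0.229. Dmrtb1 differed from the other 4 by 0.900 to 1.007. These are descriptions, since the libraries share the regional difference that chose the genes.

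The genes most like each member differed between members. For Upk1b they were Nav2 (0.15), Rwdd3 (0.158) and Siglech (0.165). For Kcnk6 they were Suclg2, a mitochondrial succinyl-CoA ligase subunit (0.15), Bloc1s4 (0.189) and Numb, an inhibitor of Notch (0.198). For Gfm2 they were Gm6277 (0.108), Pik3cb (0.128) and Dhodh, an enzyme of pyrimidine synthesis (0.129), and for Gpr155 Fignl2 (0.094), Vsir, an inhibitory receptor of immune cells (0.149), and Tmem177 (0.15). Dmrtb1 had no gene as close: the nearest, Adtrp, was at 0.597, followed by Gm38336 (0.655) and ENSMUSG00000092222.1 (0.675). None of these genes was tested in the second cohort. The measure does not allow for the size of a change or for counting error, and Dmrtb1 had few reads.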

How the data were processed

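RNA of CD11b-enriched microglia was sequenced with MARS-seq, a 3′ protocol. The authors aligned reads to GRCm38 with STAR 2.5.3a, counted them over exons of Gencode M17 with featureCounts 1.6.0, without strand and without reads on more than a single gene, and deposited raw counts. Symbols were matched to 53620 of 53715 identifiers. Groups followed the titles. The labels of the 2 unassigned libraries name both regions.

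Counts were scaled with TMM (edgeR 4.0.16) and fitted with voom and limma 3.58.1 (R 4.3.3). A gene was left out where over 50% of the libraries of a fit had under 6 counts. The threshold was an unadjusted p of 0.01 within a cohort, and an adjusted p of 0.05 in the fits of 8 libraries, with cohort or region as covariate. Log2 CPM used a prior count of 2. The procedure was tested on simulated data. The members and lists were chosen with earlier results of these data known. Named genes were the members, genes passing in both cohorts, the 5 just outside, the 3 most like each member, family genes that passed and the 2 most abundant markers of lists that moved. Other genes were named after their values were seen. Alternatives included DESeq2 1.42.0, edgeR's quasi-likelihood test, filters, thinning, weights, a replicate block, both placements of the unassigned libraries and leaving out each library. Values of some list genes and of a gene overlap are not reported here.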

Additional observations from a re-analysis of the deposited data

Results flagged for a closer look

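The 5 genes were also counted in the 2 libraries of the second cohort whose region is unsettled, which entered no comparison. In the library titled Mdb 2, with 1584013 counts, Dmrtb1 had 18 counts (10.6 CPM), Upk1b 184 (109 CPM), Kcnk6 446 (263 CPM), Gfm2 253 (149 CPM) and Gpr155 354 (209 CPM). In the library titled Str 2, with 5194739 counts, Dmrtb1 had 5 counts (0.995 CPM), Upk1b 140 (27.9 CPM), Kcnk6 819 (163 CPM), Gfm2 457 (90.9 CPM) and Gpr155 606 (121 CPM). These values stand out only as signal in libraries outside the comparisons: each count is above the limit of 3 counts. The region of either library was not inferred from them.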

How the results depend on the processing

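Of 231 fitted regional differences of the 5 genes under the alternatives, 230 were positive. The exception was Upk1b in the second cohort, at -0.12 with the 2 unassigned libraries placed by their titles. The genes were chosen for a positive difference, and most alternatives refit the same libraries, so nothing is read from that count. Counts of genes moved more. Genes higher in the striatum numbered 82 in the pilot cohort, 80 in the second, 7 in both (5 of them members), 12 in the joint fit, and 1480 differed between cohorts. Family genes passing the joint fit are counted below whatever their direction, and the 1 that passed, Il1b, was lower in the striatum. With library size only, the joint fit gave 19. DESeq2 gave 49 in the second cohort, 96 in the joint fit and 3 family genes in place of 1. Without a filter there were 205 in the pilot cohort, 49 in the joint fit, 15 in both cohorts and 2 family genes. With a filter of 10 counts, required of each library, there were 42 in the second cohort, 4 in the joint fit and 3 members, with Dmrtb1 then not tested in the second cohort and Kcnk6 tested without passing there. Thinning gave 30, 20, 541 between cohorts, 4 in both and 1 member. Sample quality weights gave 145 in the pilot cohort, 54 in the joint fit, 2332 between cohorts and 2 family genes. Placing the unassigned libraries by title gave 0 in the joint fit, 0 in both cohorts, 0 members and 0 family genes. Placing them in the other region gave 171 in the second cohort, 144 in the joint fit, 2375 between cohorts, 26 in both and 4 family genes. At p under 0.05 there were 604, 496 and 106 in both. Scaling to the homeostatic markers, added after seeing the data, gave 3 and 3 in the cohorts, 4 in the joint fit, 0 in both, 0 members and 14 family genes. All 14 family genes were lower in the striatum. Leaving out each library gave 9 to 1120 in the pilot cohort, 57 to 381 in the second, 0 to 37 in the joint fit, 134 to 2021 between cohorts, 0 to 31 in both, 0 to 5 members and 0 to 1 family genes.

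The labels do not say whether same-numbered libraries share mice. Deviations of same-numbered libraries correlated at -0.0341 in the pilot cohort and 0.077 in the second. With 2 libraries per group, these correlations cannot settle whether the libraries are paired. With the replicate block there were 285 genes in the second cohort, 56 in the joint fit and 34 in both, and the pilot cohort stayed at 82 and the members at 5. The block could not be fitted for the cohort difference, since each block lies within a cohort. The causes of these changes were not tested.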
